A study of Homo sapiens with 6 samples.

Results

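The peroxiredoxins PRDX1 to PRDX6 and 4 genes that regenerate or accompany them (SRXN1, TXN, TXNRD1 and SESN3) were described in control cells and in cells with LSD1 knocked down. These 10 genes were taken by symbol out of the 15585 genes of the deposited table, and all 10 passed the filter on low counts. They were chosen with their difference between the groups already known, the low PRDX1 level foremost, so the values between the groups are given as a description, and no p-value is given for a member.

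Peroxiredoxins are abundant peroxidases that reduce hydrogen peroxide, lipid peroxides and peroxynitrite with a reactive cysteine. In the typical 2-Cys members PRDX1 and PRDX2 (cytosol and nucleus), PRDX3 (mitochondria) and PRDX4 (endoplasmic reticulum) the oxidised cysteine forms a disulfide with a partner subunit, in the atypical PRDX5 it forms one within the same chain, and the 1-Cys PRDX6 is regenerated with glutathione. The disulfide in the cytosol is reduced by thioredoxin (TXN), which thioredoxin reductase (TXNRD1) recharges with NADPH, and a 2-Cys peroxiredoxin oxidised one step further is rescued by sulfiredoxin (SRXN1). SESN3 belongs to the sestrins, stress-induced proteins that have been linked to the return of overoxidised peroxiredoxins to the cycle and that restrain growth signalling.

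RNA from 6 libraries was sequenced, 3 from cells transfected with control siRNA (siCTR) and 3 from cells transfected with siRNA against LSD1 (siLSD1), all at 48 h. LSD1, encoded by KDM1A, removes methyl groups from histone H3 lysine 4 and releases hydrogen peroxide with each group it removes. The study used the transcriptome to ask whether loss of LSD1 alters the expression of DNA replication genes. The labels name the cells U2OS, a human osteosarcoma line, and give no further treatment, genotype or clone.

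Between 12513511 and 13561344 reads were counted in each library. KDM1A was read 6140, 6493 and 6573 times in siCTR replicates 1 to 3 and 1110, 1198 and 1246 times in siLSD1, so that 18.5% of the control level was left (adjusted p 2.27e-07, edgeR quasi-likelihood test with Benjamini-Hochberg adjustment). Of the markers chosen for U2OS, VIM was at 731 to 880 CPM (reads scaled to a common library size) and COL1A1 at 9.07 to 14.9 CPM, whereas SPARC and RUNX2 had at most 3 and 4 reads in any library. CDKN2A at 136 to 224 CPM and TERT at 5.26 to 8.32 CPM, both looked for as low or absent in U2OS, were present. The epithelial genes EPCAM (2.09 to 3.19 CPM) and CDH1 (4.91 to 11.5 CPM) were low, though the range of CDH1 overlapped that of COL1A1. The epithelial keratins KRT8 (1610 to 2270 CPM) and KRT18 (809 to 1300 CPM), chosen after their values were seen, were high, and PTPRC and PECAM1 had at most 1 and 3 reads. The data thus go against the label U2OS on SPARC, RUNX2, TERT and CDKN2A, in both groups, and the cells are called here by their groups only. One library stood apart in a way that touches the members. In siCTR replicate 2, short genes read high and long genes read low.

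Short stretches before the transcription starts are shown for the members in which a pair of motifs known from this pathway occurred, so that the letters can be seen beside the levels. RefSeq promoters (GRCh38.p14) were on hand for 8 of the 10 members, in 10 windows, and PRDX1 and PRDX6 had no entry. The 250 bases before each start were searched on both strands for the core of the antioxidant response element, TGACNNNGC, through which NRF2 acts, and for the E-box CACGTG. Matches of the 2 motifs did not overlap in these windows. Capitals mark the match in each stretch.
TXNRD1, outer start: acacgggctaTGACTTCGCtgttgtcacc
TXNRD1, inner start: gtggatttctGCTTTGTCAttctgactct
PRDX3: gtaggaaaacCACGTGtcacttgccc
PRDX4: ggccggcgccCACGTGgcggggcggg
The TXNRD1 stretches lay at chr12:104215670-104215698, outside the annotated gene, and at chr12:104286920-104286948, in an annotated exon of the gene, both on the plus strand. The matches began 99 and 102 bases before their starts, and the match at the inner start read on the opposite strand. The PRDX3 stretch lay at chr10:119178954-119178979 on the minus strand, outside the gene, with its match 157 bases before the start. The PRDX4 stretch lay at chrX:23667400-23667425 on the plus strand, within the annotated gene but in none of its exons, with its match 83 bases before the start. Among all 35116 promoters in the table, 10.9% held the first motif and 6.34% the second. A match is a description of these letters and not evidence of binding.

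Members fell into a high and a low tier. Levels are compared between genes in FPKM, the deposited read level scaled to gene length and to the reads of the library. In siCTR, PRDX1 led at 583 ± 91.6 FPKM (SD, n = 3), with the libraries between 517 and 687. TXN followed at 483 ± 105 FPKM, and its libraries (404 to 602) overlapped those of PRDX1. PRDX6 came next at 252 ± 35.3 FPKM and overlapped neither TXN nor PRDX2. PRDX2 (185 ± 27.2), TXNRD1 (181 ± 8.42) and PRDX5 (180 ± 22.8 FPKM) could not be ordered beyond their spread. PRDX3 (126 ± 19.7) and PRDX4 (112 ± 16.6 FPKM) also overlapped each other. SRXN1 (1.30 ± 0.995 FPKM) and SESN3 (0.397 ± 0.0715 FPKM) lay far below the other 8. In siLSD1 the order was TXN (401 ± 20.4), then PRDX6 (248 ± 14.5) and PRDX1 (247 ± 23.2 FPKM), which overlapped, then PRDX5 (180 ± 24.5), TXNRD1 (168 ± 2.76) and PRDX2 (160 ± 12.3 FPKM), which overlapped too. PRDX4 (138 ± 2.50 FPKM) now stood above PRDX3 (107 ± 4.82 FPKM) with no overlap. PRDX1 ranked between 46 and 53 among all genes by FPKM in the siCTR libraries and between 127 and 158 in the siLSD1 libraries.

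**Figure D1:**
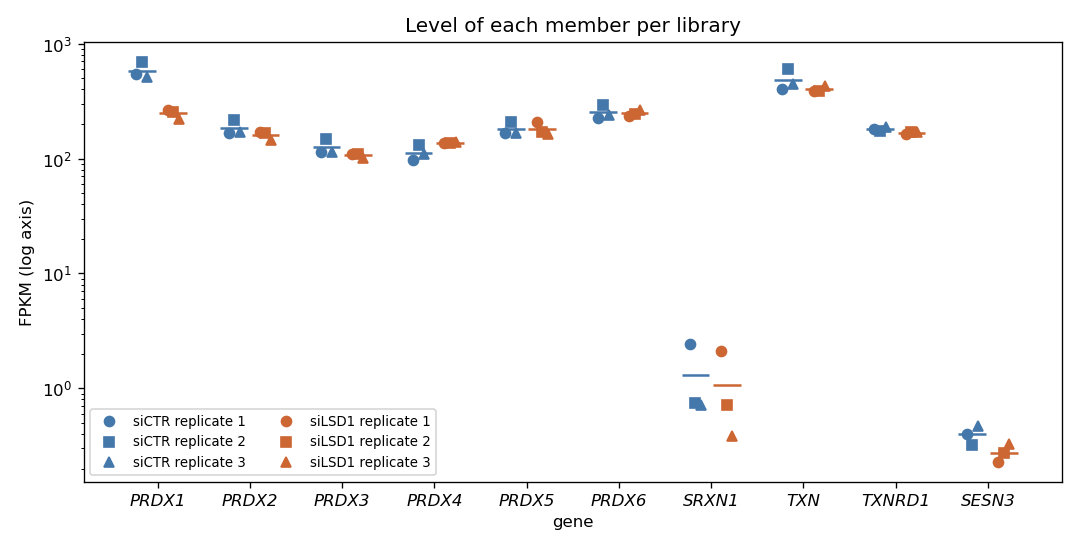
FPKM of the 10 members in each library on a log axis, with siCTR in blue and siLSD1 in orange, 1 marker shape per replicate number and a bar at the mean of 3 libraries. The siLSD1 points of PRDX1 (220 to 264 FPKM) lie below its siCTR points (517 to 687 FPKM), those of PRDX4 lie above, and SRXN1 has a high replicate 1 in both groups.

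PRDX1, the main cytosolic and nuclear 2-Cys peroxiredoxin (chr1:45510914-45542732, minus strand, coordinates of all genes from GENCODE release 44 on GRCh38), had the largest absolute log2 fold change of the 10. The siCTR libraries held 8747, 11210 and 8704 of its reads, and the siLSD1 libraries 4389, 4014 and 3741, which is 674, 873 and 647 CPM against 327, 322 and 277 CPM. The groups did not overlap, and siLSD1 stood at 42.2% of siCTR, a log2 fold change of -1.24 (SE 0.13). In bulk RNA, fewer cells with a transcript and less of it per cell cannot be told apart. PRDX1 was the only member with an adjusted p under 0.05 and was lower in siLSD1, where 44 of 11844 genes tested (0.371%) were called lower and 127 (1.07%) higher, 171 (1.44%) in all. As the members were chosen on this contrast, nothing is read from that count. In the second set of counts that the authors deposited for the same libraries, the siCTR libraries held 9771, 12081 and 9387 PRDX1 reads and the siLSD1 libraries 4786, 4330 and 4180, a log2 fold change of -1.24. Without siCTR replicate 2, its highest library, the log2 fold change was -1.09.

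PRDX2, the other typical 2-Cys member of the cytosol (chr19:12796820-12801800, minus strand), had 164, 217 and 168 CPM in siCTR and 166, 164 and 145 CPM in siLSD1. The groups overlapped, with siCTR replicate 2 above the other 5 libraries. The log2 fold change was -0.21 (SE 0.13) over all libraries and -0.07 without siCTR replicate 2.

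PRDX3, the mitochondrial member (chr10:119167720-119178812, minus strand), had 181, 239 and 181 CPM in siCTR and 172, 176 and 162 CPM in siLSD1. Every siLSD1 library lay below every siCTR library, by a narrow margin between siLSD1 replicate 2 and the lowest siCTR libraries. The log2 fold change of -0.24 (SE 0.13) became -0.09 without siCTR replicate 2.

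PRDX4, which works in the endoplasmic reticulum and can be secreted (chrX:23664262-23686397, plus strand), was the only member whose siLSD1 libraries all lay above the siCTR libraries. It had 131, 180 and 149 CPM in siCTR and 183, 187 and 192 CPM in siLSD1. The highest siCTR value was again that of replicate 2, and the 3 siLSD1 libraries were close to each other. The log2 fold change was 0.29 (SE 0.12), with 0.19 without siCTR replicate 1, its lowest library, and 0.43 without siCTR replicate 2. PRDX4 was not called in the fit reported here. It was called, at 0.38, when the fit corrected for GC content and gene length, under which 7.4% of all genes were called.

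PRDX5, found in mitochondria, peroxisomes and cytosol (chr11:64318121-64321811, plus strand), had 148, 187 and 148 CPM in siCTR and 184, 151 and 147 CPM in siLSD1. One library in each group was high, and the log2 fold change was 0.00 (SE 0.13). PRDX6, the glutathione-dependent 1-Cys member, which also has phospholipase activity (chr1:173477330-173488815, plus strand), had 391, 519 and 417 CPM in siCTR and 408, 430 and 464 CPM in siLSD1. The groups overlapped at a log2 fold change of -0.03 (SE 0.13). For both genes the sign of this value changed between alternative fits, from -0.11 to 0.17 for PRDX5 and from -0.11 to 0.11 for PRDX6.

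TXN, the electron donor of the cytosolic 2-Cys members (chr9:110243810-110256507, minus strand), had 348, 530 and 384 CPM in siCTR and 334, 340 and 371 CPM in siLSD1. The groups overlapped, and siCTR replicate 2 stood well above the other 5 libraries. The log2 fold change was -0.27 (SE 0.15), and -0.07 without that library. TXNRD1, the selenoprotein that reduces TXN (chr12:104215779-104350307, plus strand), had 905, 881 and 953 CPM in siCTR and 826, 864 and 856 CPM in siLSD1. Every siLSD1 library was below every siCTR library by a narrow margin, at a log2 fold change of -0.11 (SE 0.10), and the siLSD1 level was 92.9% of siCTR. TXNRD1 is the longest of the 8 abundant members, and siCTR replicate 2 was its lowest control library rather than its highest.

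SRXN1, which reduces the sulfinic form of 2-Cys peroxiredoxins (chr20:646615-653200, minus strand), was scarce. It was read 85, 26 and 26 times in siCTR, and 76, 24 and 14 times in siLSD1. Replicate 1 was the high library in both groups, at 3.31 times the mean of the other siCTR libraries and 3.82 times that of the other siLSD1 libraries. In all, 7 of the 11566 genes that averaged 1 CPM or more had replicate 1 at more than 2 times the others in both groups, a rule set after the SRXN1 values were seen. The log2 fold change of SRXN1 was -0.28 (SE 0.56) and lay between -1.24 without siLSD1 replicate 1 and 0.54 without siCTR replicate 1, so no direction can be given. SRXN1 is a target of NRF2. In 14 other genes of NRF2 control and its targets, replicate 1 was at 0.786 (MAFF) to 1.27 (OSGIN1) times the others in siCTR and at 0.79 (NFE2L2) to 1.51 (OSGIN1) times in siLSD1.

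SESN3 (chr11:95165513-95232541, minus strand) was scarcer still per length, at 53, 43 and 64 reads (siCTR) against 31, 35 and 45 (siLSD1). In CPM the siLSD1 libraries (2.31, 2.81 and 3.34) lay below the siCTR libraries (4.08, 3.35 and 4.76), the highest of the former just under the lowest of the latter. The log2 fold change was -0.53 (SE 0.25), between -0.67 and -0.40 when 1 library was left out.

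Counted over the 10 members, every siLSD1 library was below every siCTR library for 4 (PRDX1, PRDX3, TXNRD1 and SESN3) and above for 1 (PRDX4), and the groups overlapped for 5. Among all genes tested, 9.97% had such a separation downwards and 11.4% upwards. The median log2 fold change of the members was -0.22, beside -0.01 over all genes tested. This median leaned on siCTR replicate 2. Without that library the values of PRDX1 to PRDX6 and TXN were higher, with PRDX2, PRDX3 and TXN at -0.07, -0.09 and -0.07. Those of TXNRD1, SRXN1 and SESN3 were lower.

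**Figure D2:**
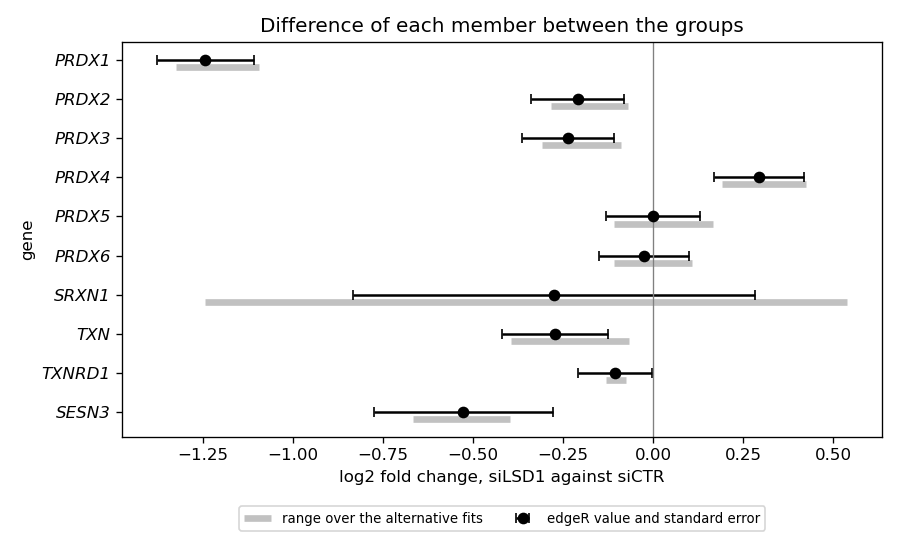
Log2 fold change of each member in siLSD1 against siCTR, with points and bars for the edgeR value and its standard error and grey bars for the range over 15 alternative fits. PRDX1 stays between -1.33 and -1.09, PRDX4 stays above 0 and SRXN1 runs from -1.24 to 0.54.

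Most members are short genes, and one control library deviated with gene length. The 6 peroxiredoxins and TXN had gene lengths of 869 to 1751 bases behind their FPKM, and 7 of the 10 members, these 7, were highest among the siCTR libraries in replicate 2. On the log2 scale siCTR replicate 2 exceeded the other siCTR libraries by 0.34 to 0.40 for the peroxiredoxins and by 0.54 for TXN. The 1268 genes tested in the same range of lengths had a median excess of 0.29 in that library, against -0.22 for the 2737 genes over 6000 bases. The same 1268 genes had a median log2 fold change of -0.13 between the groups. The correction for GC content and length used the longest GENCODE transcript of each gene, not the length behind the FPKM. After it the log2 fold changes were -1.18 for PRDX1, -0.13 for PRDX2, -0.19 for PRDX3, 0.38 for PRDX4, 0.17 for PRDX5, 0.04 for PRDX6, -0.11 for TXN and -0.13 for TXNRD1. The part of gene length in the members' differences was not tested beyond this correction.

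**Figure D3:**
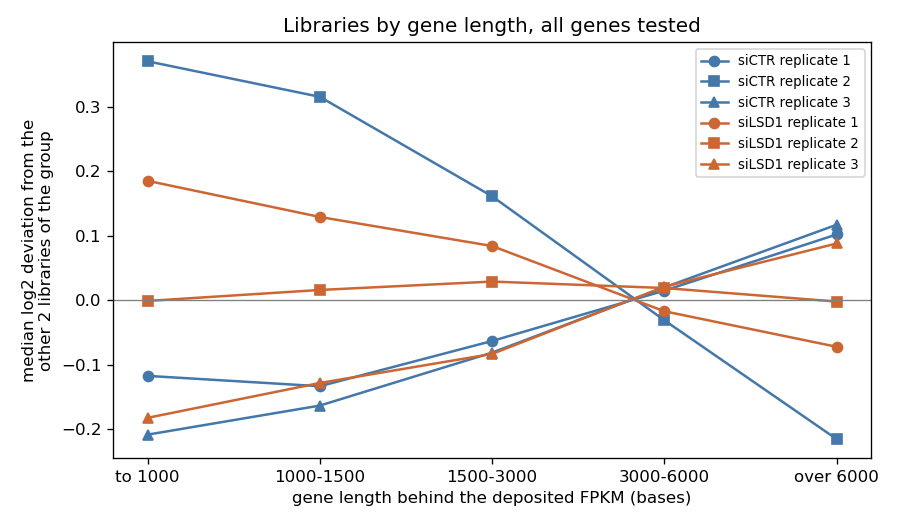
Median log2 deviation of each library from the other 2 libraries of its group, for all genes tested, in 5 bins of gene length. The line of siCTR replicate 2 runs from 0.37 in genes up to 1000 bases to -0.22 in genes over 6000 bases, a wider span than that of any other library.

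Shares within a library set the peroxiredoxins against each other. PRDX1 made up 41.3, 40.9 and 39.3% of the summed PRDX1 to PRDX6 FPKM in siCTR and 23.5, 23.7 and 21.3% in siLSD1, a mean of 40.5% ± 1.03 (SD, n = 3) against 22.8% ± 1.35. The sum itself was 1316, 1680 and 1314 FPKM in siCTR and 1122, 1082 and 1036 FPKM in siLSD1, or 75.2% of the control mean. Without PRDX1 the other 5 summed to 773, 993 and 797 FPKM in siCTR and 858, 826 and 816 FPKM in siLSD1. The groups overlapped and siLSD1 stood at 97.5% of siCTR. Both rest on siCTR replicate 2, the only control above the siLSD1 libraries, as the other controls lay below all of them. The shares of the other 5 were thus larger in siLSD1 with PRDX1 smaller, and a larger share is not a higher level.

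The share of PRDX4 was 7.39 to 8.31% in siCTR and 12.1% or more in every siLSD1 library, that of PRDX6 was 17.1 to 18.1% against 21.0 to 25.5%, and that of PRDX3 was 8.66 to 8.83% against 9.71 to 10.2%. PRDX1 divided by PRDX6 was 2.41, 2.35 and 2.17 in siCTR and 1.12, 1.05 and 0.835 in siLSD1, so the pair came to near equal FPKM. PRDX4 divided by PRDX3, the members of the endoplasmic reticulum and the mitochondria, was 0.849, 0.877 and 0.959 in siCTR and 1.25, 1.24 and 1.39 in siLSD1. These ratios put siCTR replicate 2 among the other controls, unlike its levels. TXN divided by the sum of the 5 other peroxiredoxins was 0.523, 0.606 and 0.554 in siCTR and 0.453, 0.472 and 0.520 in siLSD1.

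**Figure D4:**
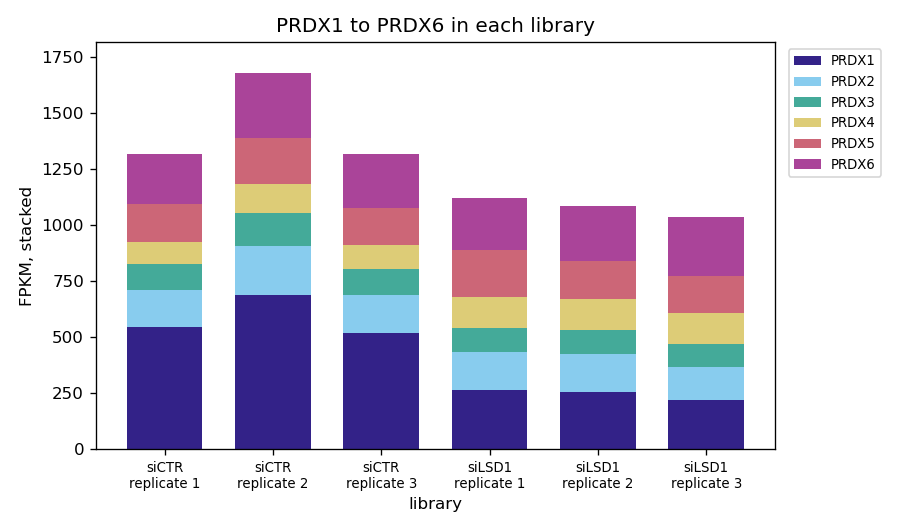
FPKM of PRDX1 to PRDX6 stacked for each library. The PRDX1 segment is 517 to 687 FPKM in siCTR and 220 to 264 FPKM in siLSD1, while the other segments together make 773 to 993 FPKM in siCTR and 816 to 858 FPKM in siLSD1.

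The genes around PRDX1 were examined as a set fixed by position. None of the 3 protein-coding genes of the table on either side passed the test, with unadjusted p from 0.218 to 0.972 and adjusted p from 0.589 to 0.99 (edgeR, Benjamini-Hochberg over all genes), and none passed with DESeq2 or limma-voom. On the left TESK2, CCDC163 and MMACHC had log2 fold changes of 0.01 (SE 0.24), -0.12 (SE 0.22) and 0.13 (SE 0.13), and on the right AKR1A1, NASP and CCDC17 had -0.06 (SE 0.12), -0.08 (SE 0.11) and 0.45 (SE 0.35). MMACHC, a gene of cobalamin metabolism on the opposite strand, shares 2469 bases with PRDX1 and had 388 to 421 reads in siCTR and 373 to 508 in siLSD1, far fewer than PRDX1. Whether the counting used strand is not stated, so reads in the shared stretch cannot be assigned with certainty. HOOK2, which overlaps PRDX2, had 234 to 293 reads in any library, and EID3, within TXNRD1, had 61 to 104. GENCODE holds 18 pseudogenes named after 6 of the members (PRDX1 to PRDX5 and TXN), none of them in the table, and how reads shared with them were counted is not stated.

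Other genes of peroxide and thiol metabolism were taken from 6 lists of 74 genes, of which 69 were in the table and 62 were tested. Of these, 1 (1.61%) passed the adjusted threshold and was lower, beside 1.44% of all genes tested in either direction, and 17 (27.4%) had an unadjusted p under 0.05, beside 14.0% of all genes tested. Their median log2 fold change was -0.11. Without siCTR replicate 2 the medians of the 6 lists ran from -0.105 to 0.123. Over the lists, 20.0% to 81.2% of genes were highest among the controls in that library, beside 40.8% of all genes tested. The lists were chosen with earlier results of these data known, so these shares are a description. DESeq2 called 3 of them (HMOX1, SESN1 and TXNIP) where it called 2.73% of all genes, and limma-voom 1 (HMOX1) where it called 1.34%, so that both gave 0 in the lists of glutathione genes, other peroxide removal and peroxide sources. HMOX1, the haem oxygenase and a reference target of NRF2, had 34.7, 36.3 and 31.3 CPM in siCTR and 24.1, 19.3 and 18.2 CPM in siLSD1, with no overlap. Its log2 fold change was -0.73 (SE 0.14, adjusted p 0.0228, edgeR). That call was lost in 4 of the 6 fits with 1 library left out, those without siCTR replicate 2 (adjusted p 0.0785, edgeR), siCTR replicate 3 (0.0559), siLSD1 replicate 2 (0.136) or siLSD1 replicate 3 (0.0617). In these 4 fits its log2 fold change was -0.68, -0.79, -0.68 and -0.65.

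In the list of NRF2 control and reference targets, 11 genes were tested, 1 was called lower and the median was -0.10. NQO1, a quinone reductase, was at 302 to 367 CPM in siCTR and 264 to 271 CPM in siLSD1 (log2 fold change -0.28, SE 0.11, adjusted p 0.27, edgeR), and its log2 fold change was -0.19 without siCTR replicate 2. MAFF, a small partner protein of NRF2, was at 6.47 to 9.03 CPM and 9.34 to 12.3 CPM (0.52, SE 0.18, adjusted p 0.215, edgeR). NFE2L2 itself, which encodes NRF2, and KEAP1, which targets it for degradation, overlapped between the groups, at 139 to 159 against 114 to 159 CPM and at 21.8 to 31.2 against 24.0 to 36.5 CPM.

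Of 10 thioredoxin-like oxidoreductases none was called in either direction in edgeR, and 5 had an unadjusted p under 0.05, 3 higher and 2 lower. TXNIP, which binds and inhibits thioredoxin, was at 23.6 to 26.6 CPM in siCTR and 33.2 to 35.9 CPM in siLSD1, a log2 fold change of 0.47 (SE 0.12, adjusted p 0.0867, edgeR). It was called under 4 of the 15 alternatives, none of them with a library left out. Among the 4 were DESeq2 (adjusted p 0.0465) and the GC and length correction (0.0112, edgeR, where 7.4% of all genes were called). TXNRD3, a thioredoxin-glutathione reductase, had 0.34 (SE 0.13) with no overlap of the groups, and TXNDC12, of the endoplasmic reticulum, had 0.55 (SE 0.24) at 3.66 to 7.75 CPM, with groups that overlapped, and 0.32 without siLSD1 replicate 1. On the lower side TXN2, the mitochondrial thioredoxin, had -0.30 (SE 0.13) with no overlap, and -0.16 without siCTR replicate 2. TXNDC17 had -0.34 (SE 0.14) with groups that overlapped, and both are given besides the genes the rule names. In all, 7 of the 10 genes had a negative log2 fold change, and the median of the list was -0.05. Without siCTR replicate 2 these were 4 of 10 and 0.07.

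The glutathione and glutaredoxin list, which serves PRDX6 and runs beside the thioredoxin system, had 14 of 16 genes at a negative log2 fold change and a median of -0.23, with none called in either direction in edgeR and 4 at an unadjusted p under 0.05. In 13 of the 16 siCTR replicate 2 was the highest control library (40.8% of all genes tested), and without it 13 had a negative value and the median was -0.10. The median over all genes tested was -0.01. SLC7A11, the cystine importer, went the other way, at 51.5 to 57.5 CPM in siCTR and 72.3 to 73.0 CPM in siLSD1 (log2 fold change 0.40, SE 0.11, adjusted p 0.11, edgeR), and it was called at 0.36 with the GC and length correction (adjusted p 0.0385). MGST2, a microsomal glutathione transferase, had -0.36 (SE 0.16).

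Among 8 other enzymes of peroxide and superoxide removal, such as catalase, glutathione peroxidases and superoxide dismutases, none was called in edgeR and none had an unadjusted p under 0.05. GPX4, a lipid peroxidase, was at 272 to 373 CPM in siCTR and 255 to 269 CPM in siLSD1 (log2 fold change -0.25, SE 0.13, and -0.10 without siCTR replicate 2), and CAT was at 46.5 to 55.3 against 50.7 to 55.8 CPM (0.01, SE 0.12, and -0.06 without that library). Both were named after their values were seen.

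Of 12 tested peroxide sources none was called in edgeR, 2 had an unadjusted p under 0.05, both higher, and the median was 0.13 (0.08 without siCTR replicate 2). ERO1A, the oxidase that makes hydrogen peroxide in the compartment where PRDX4 acts, was at 53.0 to 57.9 CPM in siCTR and 58.8 to 74.7 CPM in siLSD1 (log2 fold change 0.32, SE 0.13, adjusted p 0.259, edgeR). MAOA, a monoamine oxidase, had 0.96 (SE 0.40) at 0.701 to 2.08 CPM, and 0.59 without siLSD1 replicate 3. Of 5 tested sestrins and peroxiredoxin partners none was called in edgeR and 3 had an unadjusted p under 0.05. SESN1, the relative of SESN3, was at 16.0 to 17.8 CPM in siCTR and 9.98 to 12.4 CPM in siLSD1 (-0.62, SE 0.15, adjusted p 0.0636, edgeR), and it was called at -0.62 to -0.66 with DESeq2 (adjusted p 0.0301), with no low count filter (0.0403, where 1.86% of all genes were called) and with the GC and length correction (0.0082). SESN1 was called under 5 of the 15 alternatives in all, and under none with a library left out. The kinase ABL1, which binds PRDX1, and STAT3, which PRDX2 oxidises, had 0.37 (SE 0.12) and 0.30 (SE 0.12), each with no overlap of the groups. Without siCTR replicate 2, the lowest control library of both, they had 0.26 and 0.21.

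**Figure D5:**
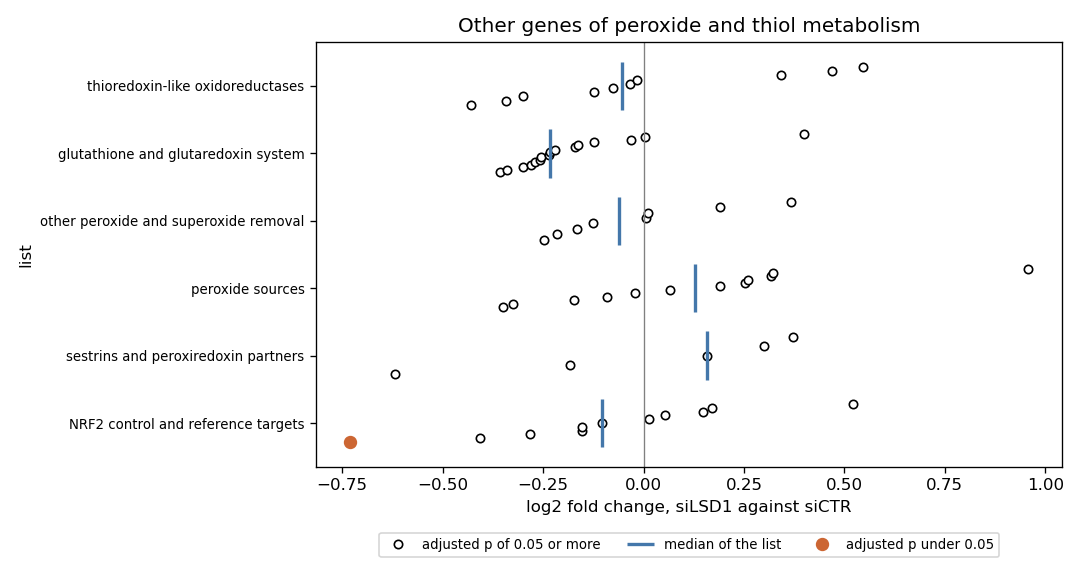
Log2 fold changes of the 62 tested genes of 6 lists in siLSD1 against siCTR, 1 point per gene, filled where the adjusted p is under 0.05, with a line at each list's median. HMOX1 at -0.73 is the only filled point, and the list medians lie between -0.23 and 0.16.

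The genes whose log-CPM ran most like that of PRDX1 over the 6 libraries were sought among the 9064 genes averaging 10 CPM or more. They were ABHD15 and GSR (each with a Pearson r of 0.993), TFDP1 (0.993), COX19 (0.992) and CCNE1 (0.991), a description over 6 points that share depth and group. All 5 were below in every siLSD1 library, with log2 fold changes from -0.49 to -0.27, each smaller in size than that of PRDX1. As likeness to PRDX1 chose them, their place between the groups follows from the choice and is no separate result. GSR, the glutathione reductase, was at 140 to 153 CPM in siCTR and 118 to 122 CPM in siLSD1. Among the members PRDX3 had an r of 0.79 with PRDX1, PRDX2 0.756, TXNRD1 0.673, TXN 0.67, PRDX5 0.205, PRDX6 0.2 and PRDX4 -0.622.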

How the data were processed

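RNA of 6 libraries, 3 per group, was sequenced, and groups and replicate numbers were taken from the labels. The authors aligned reads with STAR, per their methods and the labels, and deposited read counts per gene, of which nothing was normalized, together with FPKM values, scaled to gene length and counted reads. A second set of counts in their tables of library pairs was used as an alternative. The aligner's version, the counting tool, strand setting and genome build are not given in the sources used here. The deposited counts divided by size factors and the columns of the authors' own comparisons (log2 fold changes and p-values) were not used. No other column of a library was left out.

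The members and lists were chosen with earlier results of these data known. Counts were fitted with edgeR 4.0.16 in R 4.3.3 (TMM, genes kept by filterByExpr at a count of 10, quasi-likelihood test, no covariates), and p-values were adjusted over the 11844 genes kept (Benjamini-Hochberg, threshold 0.05). CPM values are TMM-scaled, and log-CPM used a prior count of 2. Alternatives were DESeq2 1.42.0, limma-voom (limma 3.58.1), library size only, no filter, at least 1 CPM in 3 libraries, the second counting, a lowess correction for GC content and length (span 0.3), a block for the replicate number, alone or (added after seeing the data) with that correction, and leaving out each library. Tables were made in Python 3.11.15. Genes named are KDM1A, the members, up to 3 neighbours of PRDX1 on each side, list genes with an adjusted p under 0.05 plus up to 3 per list with the largest change at an unadjusted p under 0.05, and the 5 genes most like PRDX1. One gene named by this rule is not reported here. Genes named besides these (list genes given as levels, overlapping genes, keratins) were chosen after their values were seen.

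Libraries held 12513511 to 13561344 counts, and the biological coefficient of variation was 12.6%. The labels do not say whether replicates came from separate cultures, so p-values measure the spread between these libraries, which may be technical. The procedure was tested on simulated data. Of 15585 genes, 14963 were matched to GENCODE release 44 by symbol and 389 by synonym.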

Additional observations from a re-analysis of the deposited data

How the results depend on the processing

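Of the members PRDX1 alone was called in the reported fit. It was called under all 15 alternatives, at log2 fold changes from -1.33 to -1.09. The number of members called was 1 under 13 alternatives and 2, with PRDX4, under the GC and length correction with and without the replicate block, and 1 with each library left out. As the members were chosen on this contrast and the alternatives drew on the same libraries, nothing is read from these calls. The sign of PRDX5, PRDX6 and SRXN1 changed between alternatives, and PRDX2, PRDX3 and TXN were at -0.07, -0.09 and -0.07 without siCTR replicate 2. The number of pathway genes called was 1 in the reported fit (1.44% of all genes called), 3 with DESeq2 (2.73%), 2 with no filter (1.86%), 8 with the GC and length correction (7.4%; HMOX1, TXNIP, GSR, SLC7A11, ERO1A, SESN1, ABL1 and MAFF), 7 with the replicate block (7.57%; among them HMOX1, TXNIP, SLC7A11, SESN1 and ABL1), 12 with both (11.1% of all genes called), and 0 to 1 with 1 library left out. The 0 was reached without siCTR replicate 2, siCTR replicate 3, siLSD1 replicate 2 or siLSD1 replicate 3, where fewer libraries entered the fit. The HMOX1 adjusted p ran from 3.19e-05 to 0.136 over the alternatives (edgeR, DESeq2 and limma). The PRDX1 share was 39.1% in siCTR with CPM in place of FPKM and 40.1 to 41.1% with 1 library left out, and in siLSD1 21.7% with CPM and 22.4 to 23.6% with 1 library left out.

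The reported fit did not pair the samples by replicate number. Deviations of same-numbered libraries from their group means correlated at 0.328, 0.0744 and 0.31, and each library correlated best with its own number. Whether the numbers pair the samples was not settled by these values. With the replicate block 897 genes in place of 171 were called, PRDX1 stood at -1.23, and no other member was called. SRXN1 and SESN3 rested on 14 to 85 reads per library.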
